A study of Triticum aestivum with 4 samples.

Results

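Hexosyltransferase genes were examined in a study that asked how ultrasound given to dry wheat seeds changes DNA methylation in the seedlings. They are the genes whose description in the authors' lists starts with the word Hexosyltransferase: 9 genes with 11 regions, of 2811 genes with 3119 regions in all. The ultrasound group grew from seeds of the winter wheat (Triticum aestivum) breeding line SE15 exposed to 30 kHz at 70 W for 5 min in open dishes, 4 cm from the sound source. The control group grew from SE15 seeds that received no ultrasound. Both groups had 100 seeds at 13.6% water, germinated in darkness at 20 °C, and whole seedlings were taken on day 7. The labels name 2 libraries per group, while the design text speaks of 3 biological samples per group.

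The assay was enzymatic methyl-seq: unmethylated cytosines are converted by enzymes before the DNA is sequenced. The lists hold levels for 1 ultrasound library and 1 control library, so every value below is a single measurement with no replicate check and no test between the groups. "Lower" and "higher" compare these 2 libraries. The control column carries the letter K, which the labels do not explain, and was taken as the control library numbered 1. A level is the percentage of methylation that the authors gave for a region, and the read depth behind it is unknown. In whole seedlings, a different mix of cell types and a different level within cells cannot be told apart. Every listed region had already been chosen by the authors for its difference between the libraries, so the levels and differences of the 11 regions are a description. No DNA or protein sequence of these genes is shown.

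Hexosyltransferases move a hexose from an activated sugar nucleotide onto an acceptor such as a growing polysaccharide or a protein. In plants the name is given, among others, to Golgi enzymes of the galacturonosyltransferase family, which build pectin, and to galactosyltransferases that add sugars to the arabinogalactan proteins of the cell surface. The lists give each of the 9 genes its own protein database entry and do not say which family it belongs to. Plant DNA is methylated in 3 sequence contexts, CpG, CHG and CHH, where H is A, C or T. CpG and CHG methylation is copied after replication from the other strand, by a maintenance methyltransferase in CpG and by a chromomethylase that reads histone marks in CHG, whereas CHH methylation has to be placed again, in part guided by small RNAs. CHG and CHH methylation is known mainly from transposons and silent chromatin, and CpG methylation also from the bodies of active genes.

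Of the 11 hexosyltransferase regions, 10 had a lower methylation level in the ultrasound library and 1 a higher one. Among all 2705 listed regions with both levels, 76.8% were lower, and nothing is read from the difference between these shares. Each difference is the ultrasound level minus the control level, in percentage points. The median was -10.7 points over the 11 regions and -10.1 points over all listed regions. The differences of the 11 regions ranged between -31.9 and 19.6 points. A decrease of at least 10 points was seen in 6 of the 11 regions, against 50.5% of all listed regions. Both levels were given for each of the 11 regions, while 414 of the 3119 listed regions lacked at least 1 level.

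**Figure D1:**
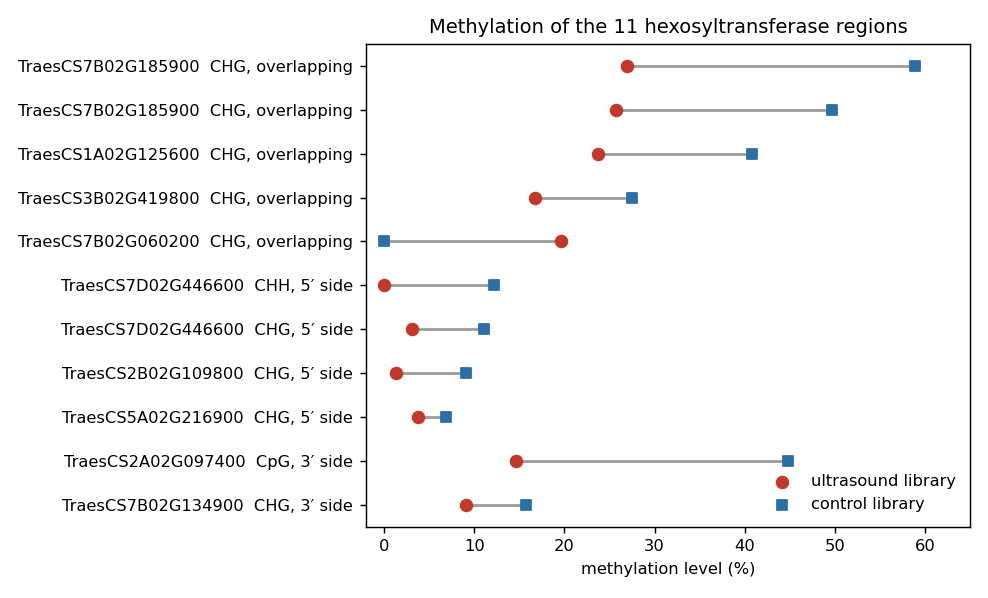
Methylation level in percent (x axis) of the 11 hexosyltransferase regions (rows, by position to the gene) in the ultrasound library (circles) and the control library (squares), 1 library each. In 10 rows the circle lies left of the square. In the row of TraesCS7B02G060200 it lies right of it, at 19.6% against a listed 0%.

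Most of these regions were in CHG. CHG held 9 of the 11 (81.8%), against 55.9% of all listed regions, and CpG and CHH held 1 region each. In CHG 8 of the 9 regions were lower, where 78.2% of all 1557 CHG regions with levels were lower. Their median difference was -7.93 points, and that of all CHG regions -8.87 points. The single CpG region was lower, as were 71.7% of all CpG regions, and the single CHH region was lower, as were 77.1% of all CHH regions.

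The 5 regions that overlapped their gene were all in CHG, in 4 genes. TraesCS7B02G185900 on chromosome 7B (minus strand) held 2 of them. The first (7B, 304976459 to 304977934) was at 25.7% in the ultrasound library and at 49.7% in the control library. The second (7B, 304980283 to 304981965) was at 26.9% in the ultrasound library and at 58.9% in the control library. The regions are 2348 bp apart, together span 5507 bp, and in the ultrasound library they had 51.7% and 45.8% of their control levels. Across the CHG regions that were lower, the ultrasound level had a median of 48.5% of the control level, with quartiles of 27.4% and 63.9%.

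The difference of the second region, -31.9 points, was the largest decrease among the hexosyltransferase regions, and 24 of the 1557 CHG regions had a larger one. The difference of the first, -24.0 points, was exceeded by 104 CHG decreases. Of the other CHG regions whose control level lay within 5 points of that of the second region, 52 of 56 were lower, with a median difference of -20.3 points and quartiles of -26.7 and -11.3 points. For the first region the same comparison gave 111 lower of 126, a median of -15.9 points and quartiles of -21.7 and -10.1 points. Both decreases in TraesCS7B02G185900 thus lay, in points, beyond the lower quartile of regions that had a like control level. As a percentage of the control level, their 51.7% and 45.8% lay within the quartiles of 27.4% and 63.9% of all lower CHG regions. Both regions lie in 1 gene and compare the same pair of libraries, so neither is an independent check of the other.

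TraesCS1A02G125600 (1A, 149868331 to 149869742, plus strand) was at 23.7% in the ultrasound library and at 40.8% in the control library, a difference of -17.1 points. The other CHG regions within 5 points of its control level had a median difference of -14.6 points, so this gene lay within their quartiles of -20.1 and -10.6 points. TraesCS3B02G419800 (3B, 656291732 to 656292643, plus strand) was at 16.8% in the ultrasound library and at 27.5% in the control library, a difference of -10.7 points. That is close to the median of -11.4 points of the CHG regions with a like control level. The ultrasound level was 58.0% of the control level for TraesCS1A02G125600 and 61.1% for TraesCS3B02G419800. Like values were found for TraesCS7B02G134900 (57.9%) and TraesCS5A02G216900 (55.3%), whose regions lay beside the gene. These values lay within the quartiles of 27.4% and 63.9% of all CHG regions that were lower.

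TraesCS7B02G060200 (7B, 62696994 to 62698773, minus strand) was the single hexosyltransferase gene with a higher level, at 19.6% in the ultrasound library and listed at 0% in the control library. Its region, 1780 bp long, was the longest of the 11. Of the 1557 CHG regions, 17 were listed at 0% in the control library, and their ultrasound levels ran between 2.84% and 43.0%, with a median of 9.52%. These 17 include TraesCS7B02G060200 itself, whose level was higher than that of 14 of the others. A region listed at 0% in the control library cannot be lower in the ultrasound library, so the direction of this gene was fixed by that listing. The other CHG regions with a control level of at most 5% were lower in 40 of 147 cases. Their median difference was 9.03 points and their upper quartile 13.3 points, and the 19.6 points of this gene lay beyond that quartile. Those not listed at 0% could go either way, so nothing is read from this comparison. The lists give no read counts, so the number of reads behind a listed 0% is unknown. With this gene, 4 of the 5 hexosyltransferase regions that overlapped a gene were lower, and 80.6% of all overlapping CHG regions were.

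**Figure D2:**
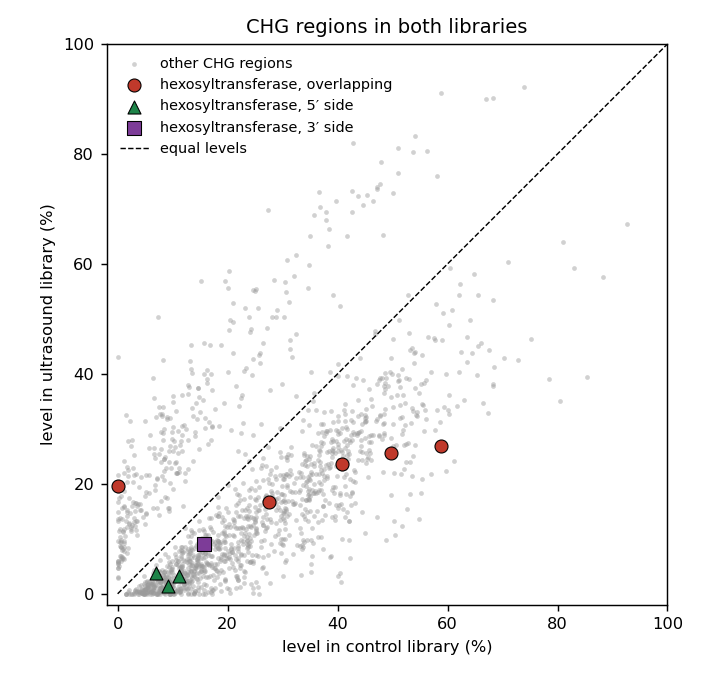
CHG methylation level in percent in the ultrasound library (y axis) against the control library (x axis) for all CHG regions with both levels, 1 library per group; large symbols are the 9 hexosyltransferase regions by position to the gene, and the dashed line marks equal levels. Among the large symbols, the 2 regions of TraesCS7B02G185900 lie farthest below the line, at 25.7% and 26.9% in the ultrasound library, and TraesCS7B02G060200 lies above it.

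The other 6 regions lay beside their gene. The word the authors give for the side says where the gene lies as seen from the region, which follows from the distances. In 75 of 75 genes with several flanking regions of 1 label, the listed distances led to 1 gene edge only under this reading, and in 96 of 96 genes with both a flanking and an overlapping region the overlapping one lay on the side so inferred. A region labelled downstream therefore lay on the 5′ side of its gene, and a region labelled upstream on the 3′ side, given the strand in the lists. Sides below are given in this way, as 5′ side or 3′ side.

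On the 5′ side lay 4 regions of 3 genes, with levels of at most 3.82% in the ultrasound library and 12.2% in the control library. TraesCS5A02G216900 (plus strand) had a CHG region 70 bp before the gene (5A, 433565116 to 433566462), the nearest of the 4. It was at 3.82% in the ultrasound library and at 6.91% in the control library, a difference of -3.09 points, the smallest of the 11. TraesCS2B02G109800 (minus strand) had a CHG region 1268 bp before the gene (2B, 71295074 to 71295903), at 1.35% in the ultrasound library and at 9.07% in the control library. Its ultrasound level was 14.8% of its control level, the lowest such value among the hexosyltransferase CHG regions. Its difference of -7.73 points lay just beyond the lower quartile, -7.70 points, of the CHG regions with a control level like its own. That of TraesCS5A02G216900 lay within the quartiles of -6.58 and 10.9 points of the CHG regions within 5 points of the control level of that gene.

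TraesCS7D02G446600 (minus strand) was the single hexosyltransferase gene listed in more than 1 context. Its CHG region, 157 bp before the gene (7D, 566951693 to 566952394), was at 3.15% in the ultrasound library and at 11.1% in the control library, a difference of -7.93 points, within the quartiles of -8.80 and -1.80 points of CHG regions with a like control level. Its CHH region, 726 bp before the gene (7D, 566952262 to 566952826), was listed at 0% in the ultrasound library and at 12.2% in the control library. The regions overlapped by 133 bp, which is 18.9% of the CHG region and 23.5% of the CHH region, and both were lower. Both distances place the gene edge at position 566951536. They compare the same pair of libraries at neighbouring cytosines, so the CHH region is no independent check of the CHG region.

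A level of 0% in the ultrasound library, which allows no higher direction, was listed for 81 of 668 CHH regions (12.1%). Their control levels had a median of 9.84% and reached 28.8%, so the 12.2% of TraesCS7D02G446600 lay within that range. Of the CHH regions with a control level within 5 points of this one, 258 of 259 were lower. The median difference of those regions was -11.2 points, beside -12.2 points for TraesCS7D02G446600.

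The 3 CHG regions on the 5′ side were all lower, as were 75.9% of all CHG regions on that side. Their control levels, 6.91% to 11.1%, lay below the lower quartile of 13.1% of all CHG regions on the 5′ side, whose median was 23.8%. Of the 5 overlapping regions, TraesCS7B02G060200 was listed at 0% in the control library, and the other 4 had control levels of 27.5% to 58.9%. All overlapping CHG regions had a median of 19.4% and an upper quartile of 34.8%, and 3 of the 5 lay above that quartile. With TraesCS7B02G060200 included, the median control level of the 5 overlapping hexosyltransferase regions was 40.8%. That of the 3 CHG regions on the 5′ side was 9.07%. Over all listed CHG regions the median control level was 19.4% within genes and 23.8% on the 5′ side. With so few regions, 2 of them in TraesCS7B02G185900, nothing is read from this contrast.

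**Figure D3:**
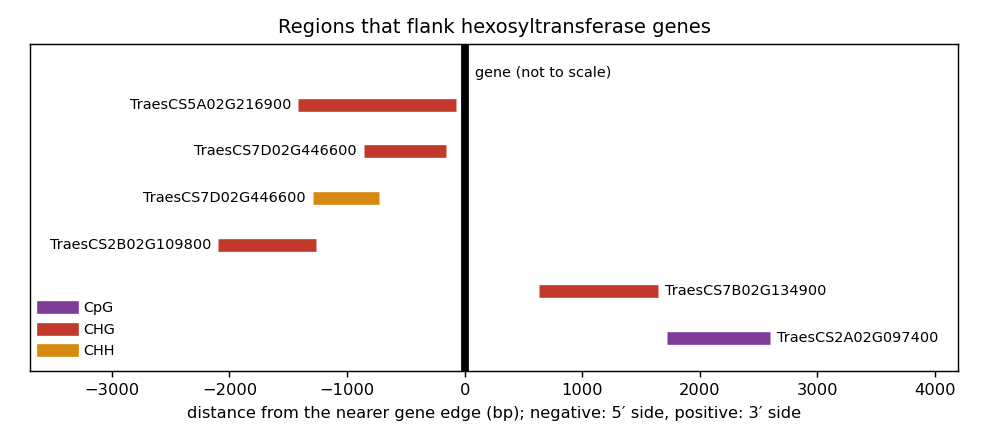
Position and length of the 6 flanking hexosyltransferase regions, as distance in bp from the nearer edge of the gene (x axis, negative on the 5′ side); bars are coloured by context and the gene itself is not to scale. The bars on the 5′ side begin between 70 and 1268 bp from the gene, and those on the 3′ side at 637 and 1725 bp.

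On the 3′ side lay 2 regions. TraesCS2A02G097400 (plus strand) had the single CpG region, 1725 bp beyond the gene (2A, 51044100 to 51044973), at 14.7% in the ultrasound library and at 44.8% in the control library. The difference was -30.1 points, and 113 of the 344 CpG regions that were lower had a larger decrease. The other CpG regions with a control level within 5 points of this one were lower in 34 of 38 cases, with a median difference of -26.5 points and quartiles of -33.7 and -19.6 points, so TraesCS2A02G097400 lay within their middle range. TraesCS7B02G134900 (plus strand) had a CHG region 637 bp beyond the gene (7B, 164978515 to 164979525), at 9.12% in the ultrasound library and at 15.8% in the control library. Its difference was -6.64 points, beside a median of -8.41 points for CHG regions with a like control level.

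The 9 genes were spread over 7 chromosomes. The B subgenome held 5 of them, 3 of these on 7B, the A subgenome 3 and the D subgenome 1, while of the 2811 listed genes 916 were on B, 886 on A, 926 on D and 83 on sequence assigned to none of these. The 3 genes on 7B did not go the same way, with TraesCS7B02G060200 higher and TraesCS7B02G185900 and TraesCS7B02G134900 lower. None of the 11 regions had a listed region of another gene within 10 kb, against 9.97% of all listed regions that did. The nearest such neighbour was 828 kb away, a CpG region of TraesCS7D02G445100 next to TraesCS7D02G446600, and for the other 8 genes the nearest lay at least 1.46 Mb away. Most listed regions likewise had no such neighbour within 10 kb, so nothing is read from its absence for these 11. The longer distances were not compared with those of other listed regions.

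Other genes that handle sugars or the cell wall were grouped by words in their descriptions. The other sugar transferases and synthases held 15 regions, of which 10 had both levels and 8 of these were lower, with a median difference of -13.8 points. The largest differences there were in CpG. A glycosyltransferase family 2 gene (TraesCS1A02G196100), described by its rice counterpart in root hair formation, was at 60.1% in the ultrasound library and at 3.21% in the control library on its 5′ side. A cellulose synthase gene (TraesCS5B02G469200), for the enzyme that spins cellulose chains at the plasma membrane, was at 19.3% in the ultrasound library and at 55.5% in the control library.

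The cell wall genes held 17 regions, 13 with both levels, of which 9 were lower, with a median difference of -8.17 points. Their largest differences were those of 2 genes in CpG. TraesCS3D02G444900, a laccase (laccases oxidise lignin precursors), was at 39.7% in the ultrasound library and 84.6% in the control library. TraesCS1B02G477900 is a pectinesterase that removes methyl esters from pectin. Its region lay 2191 bp beyond the gene on the 3′ side, at 57.3% in the ultrasound library and 94.8% in the control library. The cellulose synthase gene counts in both groups. Of the 12 regions of Golgi and secretory pathway genes, all with levels, 9 were lower, with a median of -9.78 points. They were led by Golgin candidate 6 (TraesCS5B02G100400), a Golgi matrix protein. A CpG region overlapping that gene was at 34.1% in the ultrasound library and listed at 0% in the control library. Next came an exocyst subunit Exo70 gene (TraesCS2B02G045000), of the complex that tethers secretory vesicles. Its CHH region lay 1051 bp beyond the gene on the 3′ side, at 3.69% in the ultrasound library and 27.6% in the control library.

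Nucleotide sugar and sugar transport genes held 2 regions, both of SWEET sugar transporter genes, and 1 had both levels. It lay on the 5′ side of TraesCS6B02G015200, at 5.06% in the ultrasound library and at 15.3% in the control library in CHG. The shares lower in these groups, 80.0%, 69.2% and 75% for the 3 with more than 1 region with levels, stand beside 90.9% for the hexosyltransferases and 76.8% for all listed regions. With 10 to 13 regions in each group and other mixes of contexts, these shares were not tested against each other.

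**Figure D4:**
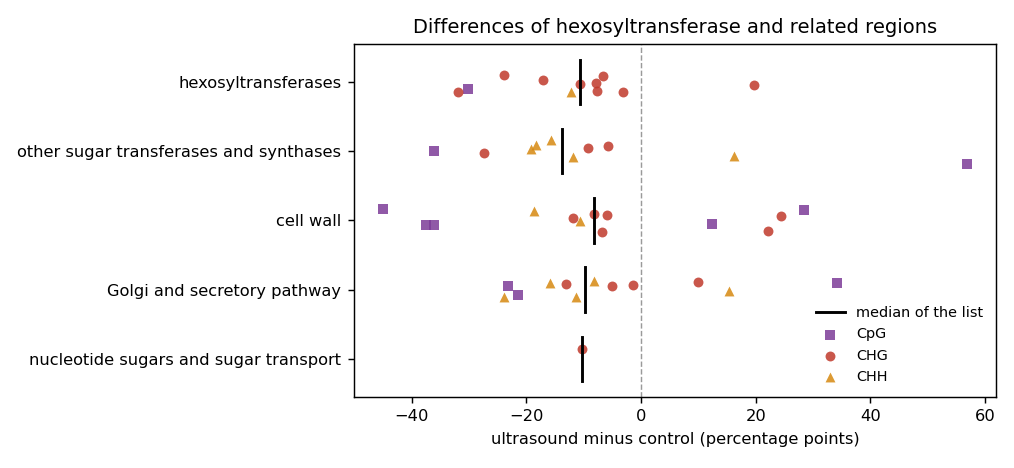
Difference in methylation, ultrasound minus control in percentage points (x axis), for regions of hexosyltransferase genes and of 4 related gene groups (rows; vertical scatter has no meaning), with symbols by context and a black bar at each group's median. The hexosyltransferase median lies at -10.7 points and those of the related groups between -13.8 and -8.17 points.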

How the data were processed

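DNA of wheat seedlings was converted enzymatically and sequenced, per the labels' protocols; the library titles read WGBS. Bismark 0.23.1, a methylation caller, is named beside Trim Galore 0.6.7, FastQC 0.11.9 and edgeR, per the submitters' processing notes. Each of the 3 deposited lists, 1 per context, gives methylation levels in percent per region for 2 libraries, with some levels missing. The authors chose the regions by a chi-square test and edgeR, per the file headers. How regions were drawn, the thresholds, the coverage and the genome build are not given in the sources used, so no error can be put on a level.

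From these levels, differences (ultrasound minus control), counts, medians and ranks were computed with Python 3.11.15, pandas 2.3.3 and SciPy 1.17.1, over regions with both levels. Every hexosyltransferase gene was named; in each related group the 2 regions with the largest absolute difference were named. Comparisons with regions of a like control level, within 5 points, and the reading of the side of the gene were chosen after the values were seen. The members, gene groups and alternatives were chosen with earlier results of these data known. The code that reads the side of the gene was tested on simulated data, as were intervals of shares and medians that are not printed here. The simulated regions were labelled under the same reading, so that test checked the code and could not decide between the readings. The other computations were not tested in this way. Alternatives were minimum differences, each gene once, overlapping regions only, CHG alone, described genes only, means, and leaving out regions listed at 0%. Levels of the libraries numbered 2 were not analysed here.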

Additional observations from a re-analysis of the deposited data

How the results depend on the processing

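The hexosyltransferase share lower was 80.0% to 88.9% with differences of at least 10 points, each gene once, overlapping regions only or CHG alone, beside 90.9% in the report. It was 100% of 2 regions with differences of at least 25 points, and 100% of 9 regions without those listed at 0% in a library, an alternative chosen after seeing the data; both leave out the 1 higher region. The median difference stayed between -17.1 points (overlapping regions) and -7.93 points (CHG alone). Using a gene's region of largest difference in place of its mean could change no direction, since 7 genes had 1 region and both regions of the other 2 were lower. Over all listed regions the share lower was 73.1% with differences of at least 10 points and 65.7% with at least 25 points, against 76.8%. It was 79.5% for overlapping regions, 75.6% with each gene once and 78.4% without regions listed at 0% in a library. The median difference of all listed regions, -10.1 points, became -7.44 points as a mean and -8.87 points for described genes. Without regions listed at 0% it was -10.6 points. The cause was not tested. No paired analysis was possible because the lists analysed here hold levels of 1 library per group, so no replicate could be left out either. A coverage minimum could not be set, since the lists give no coverage.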

Other observations

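Counted by exact name, hexosyltransferase was the second most frequent in the lists. Among 309 different names given to 441 described genes, peroxidase had 14 regions in 13 genes and hexosyltransferase 11 regions in 9 genes. Glycosyltransferase, Protein DETOXIFICATION and Photosystem II reaction center protein Z followed with 8 regions each. Counted instead by names that start with Glycosyltransferase, as the hexosyltransferases were, there were 10 regions in 10 genes. How many genes of each name the wheat genome holds was not analysed here, so these counts do not say that a name is over-represented. Of those 10 glycosyltransferase regions 6 were in CHH, 3 in CHG and 1 in CpG. In CHG were 9 of 11 hexosyltransferase regions and 12 of 14 peroxidase regions. Of all listed regions 55.9% were in CHG, 23.7% in CHH and 20.3% in CpG. Nothing is read from these small counts. Both levels were given for 7 of the 10 glycosyltransferase regions, and 5 of these were lower in the ultrasound library. Of the 13 peroxidase regions with both levels, 9 were lower, beside 76.8% of all listed regions with both levels.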
